A study of Mus musculus with 32 samples.

Results

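A set of imprinted growth genes, 10 of the 50600 genes of the deposited count table, was followed across 32 primary mouse melanomas. They were chosen by name, with earlier results of these data known. The members were H19, Igf2, Cdkn1c, Dlk1, Meg3, Rian, Peg3, Peg10, Plagl1 and Grb10. Each was found by its Ensembl identifier, and all 10 passed the filter on low counts. Every mouse carried Tyr::NrasQ61K, an activated Nras driven in melanocytes by the tyrosinase promoter, was Cdkn2a-/+, with a single copy of this tumour suppressor, and had floxed E-cadherin alleles (Cdh1F/F). Ecad mice had no Cre and kept E-cadherin. ΔEcad mice also carried, according to the study's methods, a Cre transgene under the tyrosinase promoter (the labels give Tyr::NRAS/° in its place), which deletes Cdh1 in melanocytes, whereas the other cells of the tumour keep it. There were 8 tumours each from Ecad males, Ecad females, ΔEcad males and ΔEcad females. The age of the mice was not given in the sources used here, and nothing in them said that the 8 tumours of a group came from separate animals, so the p-values measure the spread between tumours.

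Imprinted genes are expressed mainly from the copy inherited from 1 parent, because marks set in the egg or the sperm silence the other copy. Many of them act on fetal growth: genes expressed from the paternal copy, such as Igf2, tend to promote growth, and genes expressed from the maternal copy, such as H19, Cdkn1c and Grb10, tend to restrain it, and most are strongly reduced after birth. These data give the sum of both copies and cannot show which parental copy was read.

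The genes lie in 7 places in the genome (GRCm38, GENCODE M21). On chromosome 7, H19 (142575529 to 142578143, minus strand), a maternally expressed long non-coding RNA, and Igf2 (142650766 to 142666816, minus strand), the growth factor, share 1 control region, and Cdkn1c (143458339 to 143461050, minus strand), an inhibitor of cyclin-dependent kinases also called p57, lies nearby in the neighbouring Kcnq1 domain. On chromosome 12, Dlk1 (109452823 to 109463336, plus strand), a membrane protein related to Notch ligands, is paternally expressed, whereas Meg3 (109541001 to 109571726, plus strand) and Rian (109603940 to 109661716, plus strand), long non-coding RNAs, are maternally expressed. The zinc finger gene Peg3 lies elsewhere on chromosome 7 (6703892 to 6730431, minus strand), the retrotransposon-derived Peg10 on chromosome 6 (4747306 to 4760517, plus strand), the zinc finger transcription factor Plagl1 on chromosome 10 (13060504 to 13131694, plus strand) and Grb10, an adaptor that dampens insulin and IGF1 receptor signalling, on chromosome 11 (11930508 to 12038683, minus strand).

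H19, Meg3 and Rian also carry microRNAs within the gene. The microRNA genes in H19 and Meg3 overlap exons of their host, whereas those in Rian and Igf2 do not. In all, 13 mature microRNAs of the RefSeq table (GRCm38.p6) lay within member genes, 2 in H19, 2 in Igf2, 3 in Meg3 and 6 in Rian. Examples are shown to identify what these host genes contain, with the seed (bases 2 to 8) in capitals. No 2 of the 4 shown share a seed, and the polyadenylated RNA counted here measures the host transcript, not the mature microRNA.
mmu-miR-675-3p in H19 (chr7:142577078-142577099, minus strand): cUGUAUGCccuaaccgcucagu
mmu-miR-675-5p in H19 (chr7:142577112-142577133, minus strand): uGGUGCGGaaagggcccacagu
mmu-miR-770-5p in Meg3 (chr12:109563710-109563731, plus strand): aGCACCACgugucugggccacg
mmu-miR-370-3p in Rian (chr12:109618305-109618326, plus strand): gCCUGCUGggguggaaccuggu

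The 250 bases before the RefSeq starts of Dlk1, Meg3 and Rian are shown because these genes were high in the same tumours (GRCm38.p6, plus strand). Of the 10 genes, 7 had an entry in the promoter table. Capitals mark 3 motifs searched on both strands in windows of 300 bases (250 before and 50 after the start): TGACGTCA, the cAMP response element, found in 1.79% of 32851 promoters, TATAAA, found in 13.62%, and CCAAT, found in 37.41%. The window of Meg3 promoter 1, the start shown, held TGACGTCA 57 bases before the start and CCAAT 100 bases before it. It also held 2 overlapping TATAAA matches, 1 on each strand, from 29 bases before the start. Meg3 promoter 2 (chr12:109545148-109545447) held none of the 3 motifs. Among the other members, the Peg3 window held TGACGTCA 178 bases before the start and CCAAT 124 and 69 bases before it. Igf2 promoter 4 held CCAAT 231 bases before its start. No match to these letters was found in the windows of Dlk1 and Rian. A match is a description of the letters and not of binding.
Meg3 (chr12:109540746-109540995): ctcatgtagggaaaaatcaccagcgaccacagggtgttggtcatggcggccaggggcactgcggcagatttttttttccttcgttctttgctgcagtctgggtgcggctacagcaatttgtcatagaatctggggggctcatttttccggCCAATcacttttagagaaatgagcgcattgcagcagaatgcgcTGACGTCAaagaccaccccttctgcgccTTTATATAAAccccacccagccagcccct
Dlk1 (chr12:109452573-109452822): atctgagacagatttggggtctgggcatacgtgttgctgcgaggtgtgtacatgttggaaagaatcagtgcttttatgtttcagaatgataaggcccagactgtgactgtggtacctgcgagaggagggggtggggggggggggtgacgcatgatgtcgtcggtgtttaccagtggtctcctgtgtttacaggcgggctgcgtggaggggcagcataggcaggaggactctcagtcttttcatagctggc
Rian (chr12:109603695-109603944): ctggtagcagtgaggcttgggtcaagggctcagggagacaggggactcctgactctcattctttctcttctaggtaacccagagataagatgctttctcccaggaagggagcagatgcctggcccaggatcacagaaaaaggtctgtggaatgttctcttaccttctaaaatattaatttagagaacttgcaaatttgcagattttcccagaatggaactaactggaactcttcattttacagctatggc

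Total counts were 24036333 to 63923086 per tumour. Cdh1, the deleted gene, ranged in males from 25 to 281.9 TPM (Ecad) and from 0.79 to 65.2 TPM (ΔEcad), and in females from 2.16 to 151.2 TPM (Ecad) and from 0.17 to 143.2 TPM (ΔEcad), so the genotypes overlapped in Cdh1 RNA in both sexes. The melanocytic markers (8 genes, among them Tyr, Dct and Pmel) summed to 5780 TPM or more in every tumour but the library labelled ΔEcad male 7, where they summed to 31.6 TPM, so the defining markers of melanocytes were near absent from that library. The library labelled ΔEcad male 2 had 0 counts over 4 Y-linked genes (Eif2s3y, Kdm5d, Uty and Ddx3y), where other males had 1459 to 8800. Its Xist was at 6.41 TPM, where other males had 0.2 TPM or less and females 8.55 TPM or more. ΔEcad female 3 had 0 counts of haemoglobin and Alas2 genes and the lowest endothelial marker sum (0.78 TPM). These 3 libraries were kept under their labels, and fold changes that moved most without one of them are also given without it.

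The members were first set in order of their level. Values are given in TPM, which is scaled for gene length and can be compared between genes. Grb10 and Cdkn1c were the most abundant, with medians over the 32 tumours of 28.5 and 22.3 TPM. H19 followed at 7.47 TPM, Peg10 at 4.215 TPM, Plagl1 at 2.895 TPM and Peg3 at 1.065 TPM. Meg3 (0.66 TPM), Rian (0.565 TPM) and Igf2 (0.515 TPM) were near each other, and Dlk1, at 0.095 TPM, was the lowest. Of the 9 pairs of neighbours in this order, 3 differed beyond their spread by a permutation test that swapped the 2 genes within tumours on the log2(TPM + 0.1) scale (two-sided, 100000 permutations, adjusted over 9 pairs): Cdkn1c over H19 (higher in 21 of 32 tumours, mean log2 difference 1.15, SD 2.41, permutation adjusted p 0.0359), Plagl1 over Peg3 (21 of 32, 1.60, SD 2.66, permutation adjusted p 0.00621) and Meg3 over Rian (25 of 32, 0.51, SD 0.66, permutation adjusted p 0.00144). The other 6, among them Grb10 and Cdkn1c (Grb10 higher in 15 of 32 tumours, mean log2 difference 0.0016, SD 2.77), did not differ beyond it.

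**Figure D1:**
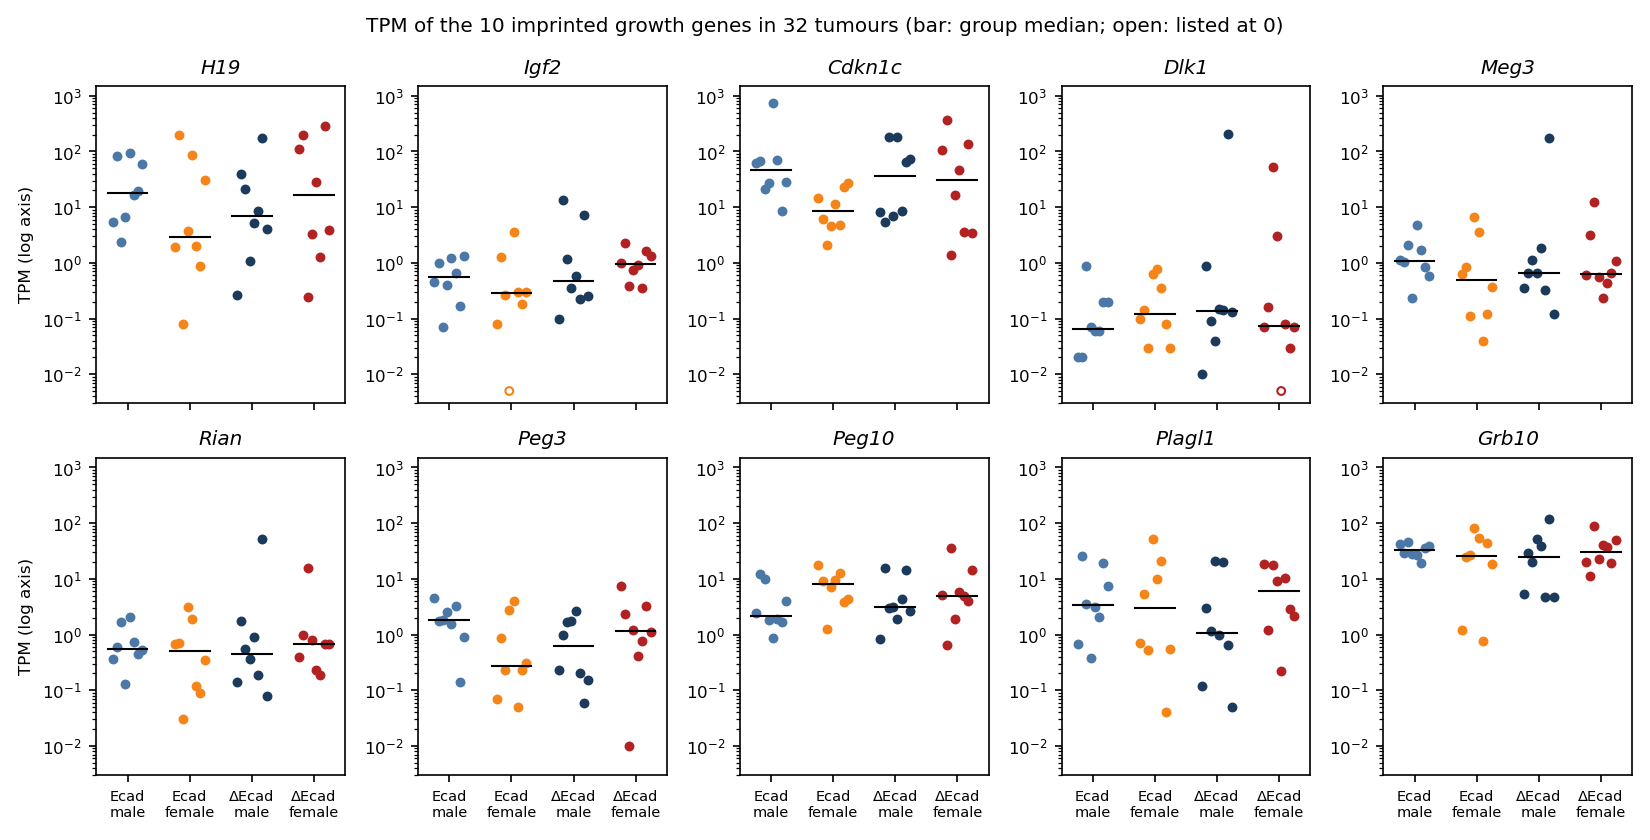
TPM of the 10 genes in each of 32 tumours on a log axis, by group, with 1 point per tumour (in order of its number), a bar at the group median and open points at the bottom for tumours listed at 0. Each gene spans a wide range within every group, and Dlk1, Meg3 and Rian have 1 or 2 ΔEcad tumours far above the rest (Dlk1 at 210.1 and 51.6 TPM, against 3.07 TPM or less in the other 30).

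The comparison of ΔEcad with Ecad tumours asked what the loss of E-cadherin in melanocytes changes. In both sexes, none of the 10 members was called (edgeR quasi-likelihood test, where a call needs both a Benjamini-Hochberg adjusted p below 0.05 and a change of more than 1 on the log2 scale). Over all 17717 genes tested, 1.2% were called in females and 0% in males. At an unadjusted p under 0.05, there were 2 of 10 members in females (Dlk1 and Cdkn1c, both with higher fitted values in ΔEcad), against 15.3% of all genes (11.2% higher, 4.13% lower), and 4 of 10 in males (Dlk1, Meg3, Rian and Igf2, all with higher fitted values in ΔEcad), against 10.2% of all genes (7.19% higher, 3.05% lower). The median log2 fold change of the members was 0.81 in females and 0.37 in males, against -0.02 and 0.11 over all genes tested. DESeq2 called 1 of 10 members in females (Cdkn1c), where it called 7.23% of all genes, and none in males, where it called 0.119%.

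Between the sexes and in the interaction of genotype and sex, again none of the 10 members was called, against 0.0508% of all genes between Ecad females and males, 0.0395% between ΔEcad females and males, and 0% in the interaction. At an unadjusted p under 0.05 there was 1 member in each, Cdkn1c in Ecad tumours (lower fitted value in females, against 16% of all genes, 5.71% higher and 10.3% lower), Meg3 in ΔEcad tumours (lower fitted value in females, against 8.81%, 3.32% higher and 5.49% lower) and Cdkn1c in the interaction (against 17.7%, 10.7% positive and 6.94% negative). DESeq2 called Cdkn1c, 1 of 10 members, between Ecad sexes, where it called 5.77% of all genes, and in the interaction, where it called 6.91%. It called no member between ΔEcad sexes, where it called 0.135% of all genes.

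**Figure D2:**
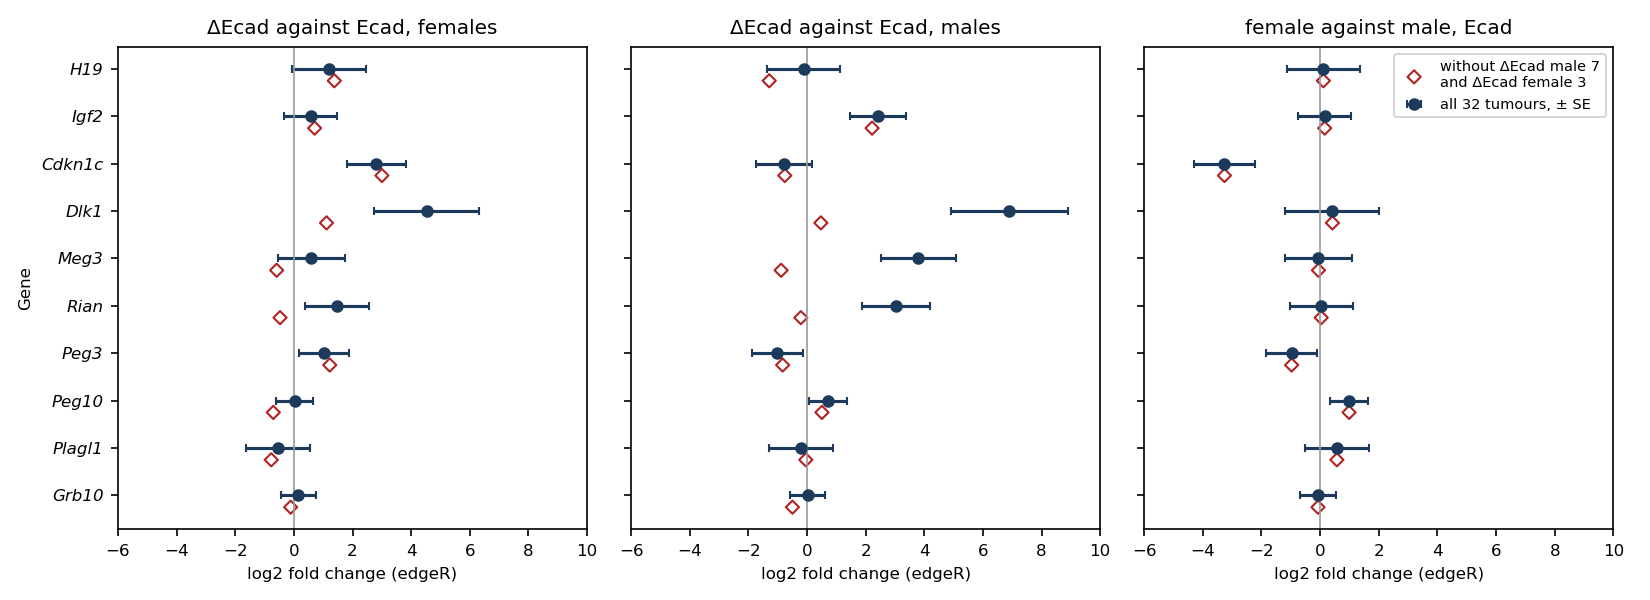
Fitted log2 fold changes of the 10 genes (edgeR) in 3 comparisons, with an SE derived from the F statistic of the test. Open diamonds show the same fit without ΔEcad male 7 and ΔEcad female 3. Dlk1, Meg3 and Rian in males move from 6.90, 3.80 and 3.04 to 0.47, -0.88 and -0.21 without these libraries, whereas Cdkn1c in females moves from 2.81 to 3.00.

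The Dlk1 to Meg3 domain on chromosome 12 held the widest gaps between tumours. Dlk1, which keeps precursor cells undifferentiated in several tissues, was from 0.02 through a median of 0.065 to 0.89 TPM in Ecad males and from 0.03 through 0.12 to 0.79 TPM in Ecad females. It was from 0.01 through 0.135 to 210.1 TPM in ΔEcad males, and from 0 through 0.075 to 51.6 TPM in ΔEcad females. The high values belonged to ΔEcad male 7 (15316 counts) and ΔEcad female 3 (4158 counts). ΔEcad female 4 followed at 3.07 TPM, every other tumour was at 0.89 TPM or less, and 8 tumours had 3 counts or fewer, so below those few tumours Dlk1 was near the limit of detection at this depth. The group medians lay within 0.065 to 0.135 TPM, and the groups overlapped. Fitted ΔEcad values exceeded Ecad values on the log2 scale by 6.90 (SE 2.00, edgeR adjusted p 0.375) in males and by 4.52 (SE 1.79, edgeR adjusted p 0.185) in females. Without ΔEcad male 7 the male value was 0.47 (edgeR adjusted p 0.908), and without ΔEcad female 3 the female value was 1.11 (edgeR adjusted p 0.780).

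Meg3, a non-coding RNA that restrains proliferation in several cell types, was from 0.23 through a median of 1.08 to 4.87 TPM in Ecad males and from 0.04 through 0.495 to 6.53 TPM in Ecad females. It was from 0.12 through 0.655 to 177.7 TPM in ΔEcad males and from 0.23 through 0.63 to 12.2 TPM in ΔEcad females. ΔEcad male 7, with 41422 counts, was the highest of the 32 and ΔEcad female 3 the second, and every other ΔEcad male was at 1.85 TPM or less. In males the fitted log2 fold change stood at 3.80 (SE 1.28, edgeR adjusted p 0.392), but it was -0.88 without ΔEcad male 7 and -0.37 in DESeq2, which by default replaces counts that stand far apart in groups of this size. In females it was 0.60 (SE 1.15, edgeR adjusted p 0.877), -0.59 without ΔEcad female 3 and 1.43 without Ecad female 4. Between ΔEcad females and males it was -3.26 (SE 1.24, edgeR adjusted p 0.503), and 1.42 without ΔEcad male 7.

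Rian, the host of small nucleolar RNAs and microRNAs, was from 0.13 through a median of 0.56 to 2.07 TPM in Ecad males and from 0.03 through 0.51 to 3.08 TPM in Ecad females. It was from 0.08 through 0.455 to 52.8 TPM in ΔEcad males and from 0.19 through 0.675 to 15.8 TPM in ΔEcad females. Again ΔEcad male 7 was the highest and ΔEcad female 3 the second, with the other 30 tumours at 3.08 TPM or less. On the log2 scale the male difference was 3.04 (SE 1.15, edgeR adjusted p 0.427) in males, -0.21 without ΔEcad male 7 and -0.31 in DESeq2. In females it was 1.46 (SE 1.09, edgeR adjusted p 0.590), and -0.47 without ΔEcad female 3. Many small RNA genes overlap Rian (19 in the annotation) and 5 genes overlap Meg3, so reads at those places are uncertain.

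The neighbours of this domain did not all share the pattern. Mirg, a non-coding RNA downstream of Rian, was at 8.65 TPM in ΔEcad male 7 and 0.75 TPM in ΔEcad female 3, against a median of 0.055 TPM, but the highest Ecad male was at 0.74 TPM, so only ΔEcad male 7 stood apart. Dio3, the enzyme that inactivates thyroid hormone at the far end of the domain, was at 42.5 TPM in ΔEcad female 3 but 1.07 TPM in ΔEcad male 7, with 4.28 TPM as the next highest value and a median of 0.74 TPM. Rtl1, a paternally expressed retrotransposon-derived gene, was at 0.3 and 0.05 TPM in ΔEcad female 3 and ΔEcad male 7 and did not pass the filter. These 3 genes were named for their position after their values were seen.

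Of the 45 pairs of members, 6 were related across the 32 tumours by Pearson's r of log2 CPM (counts scaled to library size), 5 positively and 1 negatively, and 4 of them also by Spearman's rho. Meg3 and Rian varied together most closely (Pearson's r 0.922, permutation adjusted p 0.000225; Spearman's rho 0.874, permutation adjusted p 0.000225; adjusted over 45 pairs of members). Their raw p of 1e-05 was the smallest that 100000 permutations can give. Within the 4 groups r was 0.900 to 0.949, and it was 0.901 when ΔEcad male 7 and Ecad female 6, the 2 with the most extreme Meg3, were left out. Meg3 exceeded Rian in 25 of 32 tumours. Dlk1 and Rian had r 0.767 (permutation adjusted p 0.000225) and rho 0.519 (permutation adjusted p 0.0318), and r was 0.454 without ΔEcad male 7 and ΔEcad female 3. For Dlk1 and Meg3, r was 0.643 (permutation adjusted p 0.00414), but rho was 0.344 (permutation adjusted p 0.169) and r without those tumours was 0.194, so that relation rested on them. Dlk1 had a median of 6 counts and 3 or fewer in 8 tumours, so its ranks among the low tumours are uncertain.

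**Figure D3:**
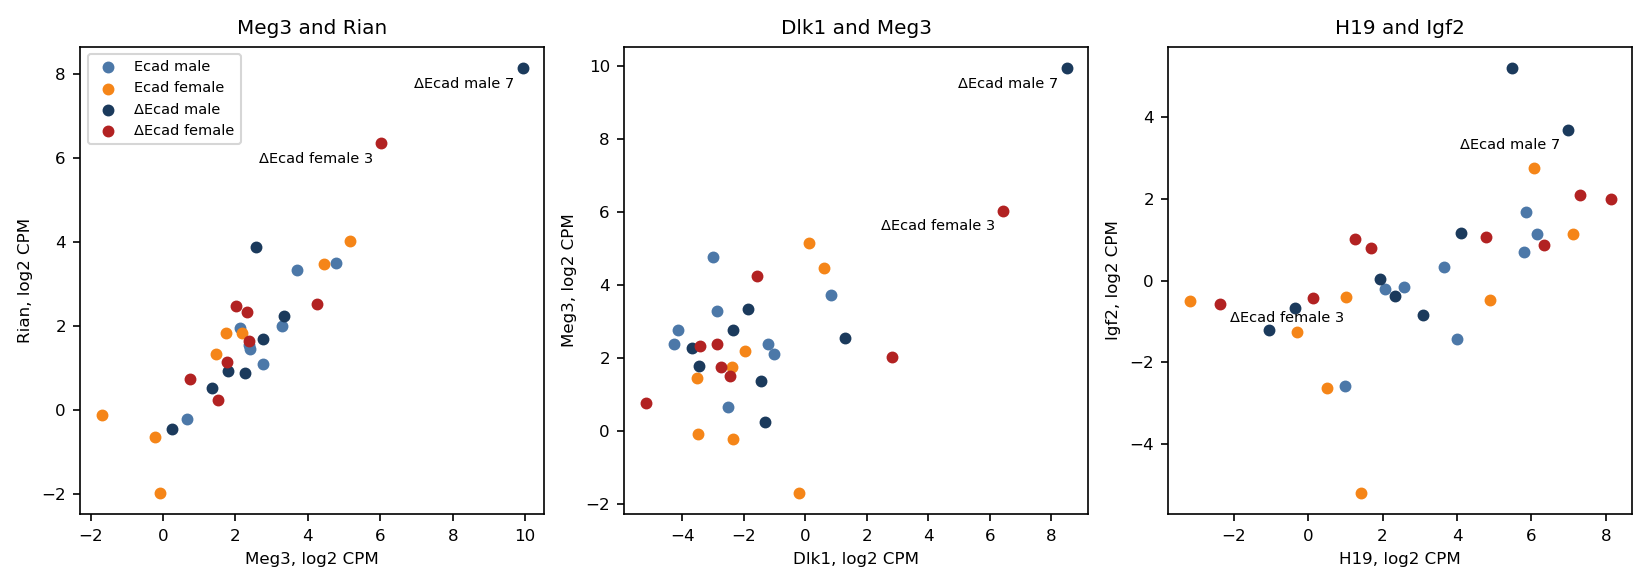
Log2 CPM of Meg3 against Rian, Dlk1 against Meg3 and H19 against Igf2, with 1 point per tumour coloured by group. Meg3 and Rian lie along 1 line over all groups (r 0.922), whereas in the middle panel ΔEcad male 7 and ΔEcad female 3 stand apart from 30 tumours with little relation (r 0.194 without them).

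Markers of some other cells varied with genes of this domain, but ΔEcad male 7 and ΔEcad female 3 did not share all of them. ΔEcad male 7 had the lowest melanocytic sum of the 32 tumours (31.6 TPM), the second highest fibroblast sum (5454 TPM, over 8 genes) and the second highest macrophage sum (4636 TPM, over 7 genes). ΔEcad female 3 had the highest fibroblast sum (9191 TPM), the third lowest melanocytic sum (9394 TPM) and the lowest macrophage sum (11.7 TPM). Its adipocyte (6.7 TPM), endothelial (0.78 TPM) and red blood cell (0 TPM) sums were also the lowest of the 32. In ΔEcad male 7 these were 109.8, 63.1 and 75.4 TPM. By the mean log2 CPM of the same fibroblast genes ΔEcad female 3 was at 6.30, the sixth of the 8 ΔEcad females, so sum and mean disagreed for this tumour. ΔEcad male 7, at 9.42, was the highest of the 32 by that mean. Fibroblast sums ranged in Ecad tumours from 343.3 to 2544 TPM (males) and from 83.6 to 4208 TPM (females), and in ΔEcad tumours from 68.4 to 5454 TPM (males) and from 365.0 to 9191 TPM (females). Over all tumours the fibroblast score (mean log2 CPM of the list) was related to Meg3 with r 0.593 (permutation adjusted p 0.00478; rho 0.525, permutation adjusted p 0.0135; adjusted over 100 pairs of a member and a score) and to Rian with r 0.522 (permutation adjusted p 0.0136; rho 0.490, permutation adjusted p 0.0221). Without the tumours farthest from the median score (Ecad female 8 and ΔEcad male 7), r was 0.451 and 0.379, and within ΔEcad females the r of Rian was -0.05. Meg3 was also related to the melanocytic score by r (-0.610, permutation adjusted p 0.0316) but not by rho (-0.216, permutation adjusted p 0.411), and r was -0.183 without ΔEcad male 7 and ΔEcad female 8. In all, 28 of the 100 pairs of a member and a score passed by r, 21 of them positive. Dlk1 was related to the Schwann cell score with r -0.666 (permutation adjusted p 0.001; rho -0.575, permutation adjusted p 0.00592), and r was -0.497 without ΔEcad male 7 and ΔEcad female 4. The median of Dlk1 was 6 counts, so most of its values in this relation lay near the limit of detection. The part of these cells in the levels of Dlk1, Meg3 and Rian was not tested, and in bulk tissue fewer cells of a type and less RNA per cell cannot be told apart.

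Cdkn1c, which arrests the cell cycle by inhibiting cyclin-dependent kinases, had its lowest median in Ecad females. It was from 2.06 through a median of 8.68 to 26.9 TPM in Ecad females, against 8.43 through 45.7 to 744.5 TPM in Ecad males. In ΔEcad males it was from 5.50 through 36.5 to 180.9 TPM, and in ΔEcad females from 1.38 through 31.3 to 364.0 TPM. All 8 Ecad females were at 26.9 TPM or less, but low values occurred in the other groups too, and the groups overlapped. For ΔEcad against Ecad the log2 fold change stood at 2.81 (SE 1.01, edgeR adjusted p 0.132) in females and -0.79 (SE 0.95, edgeR adjusted p 0.774) in males. Between Ecad females and males it was -3.26 (SE 1.03, edgeR adjusted p 0.118), and the interaction was 3.60 (SE 1.37, edgeR adjusted p 0.153). DESeq2 gave 2.92 (adjusted p 0.0171), -3.36 (adjusted p 0.00700) and 3.79 (adjusted p 0.0364) for the comparison in females, between Ecad sexes and the interaction, and called all 3. Over all alternatives other than single tumours left out, the adjusted p ranged from 0.0171 to 0.865, from 0.00700 to 0.989 and from 0.0364 to 0.908. Ecad male 5, at 744.5 TPM, weighed on 3 of these values: without it they were -1.67 (edgeR adjusted p 0.457) and 2.01 (edgeR adjusted p 0.453) for the Ecad sexes and the interaction, and the value in males turned from -0.79 to 0.81. Without ΔEcad female 2, at 364.0 TPM, the value in females was 1.98 (edgeR adjusted p 0.419). An antisense gene, Gm44732, overlaps Cdkn1c and had at most 406 counts in a tumour, against 19402 of Cdkn1c in the same tumour (Ecad male 5).

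Markers of skin, fat and muscle moved with Cdkn1c. The keratinocyte markers (10 genes, among them Krt5, Krt14 and Krt10) summed to 0.21 to 1750 TPM in Ecad females, with a median of 1.88 TPM, against medians of 4877 TPM in Ecad males (1.35 to 23602), 447.8 TPM in ΔEcad males (1.65 to 15257) and 6450 TPM in ΔEcad females (1.67 to 38595). At an unadjusted p under 0.05, 9 of the 10 were lower in Ecad females than in Ecad males, against 10.3% of all genes. In ΔEcad against Ecad females, 9 of 10 were higher, against 11.2% of all genes. None of the 10 was called in either comparison. Of 7 hair follicle markers tested, edgeR called 6 higher in ΔEcad than in Ecad females (adjusted p 0.0394 to 0.0463), where it called 1.2% of all genes. On either TPM scale and in the females alone, however, at most 1 gene of all was called. The hair follicle scores of 4 of the 8 ΔEcad females (-5.19 to -4.26) lay within those of the Ecad females (-5.19 to -2.70). Cdkn1c was related to the keratinocyte score with r 0.460 (permutation adjusted p 0.0357; rho 0.504, permutation adjusted p 0.0184) and more closely to the adipocyte score (6 genes, among them Adipoq and Plin1), with r 0.778 (permutation adjusted p 0.000333; rho 0.764, permutation adjusted p 0.0005). Within groups r ran from -0.294 (Ecad females) to 0.689 (Ecad males) for the former and from 0.256 to 0.879 for the latter. Keratinocyte scores lay on either side of a gap from 0.70 to 3.36, and r was 0.029 in the 14 tumours below and 0.634 in the 18 above it. Skeletal muscle scores had a gap from 1.04 to 2.84. Mean Cdkn1c was 2.36 log2 CPM in the 11 tumours below that gap (r -0.085) and 4.95 in the 21 above it (r 0.467). With the keratinocyte and melanocytic scores as covariates, the log2 fold changes of Cdkn1c were 0.92 in females and -1.35 between Ecad sexes, with edgeR adjusted p of 0.865 and 0.989. How far these cells make up the level of Cdkn1c was not tested.

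H19 and Igf2, which share enhancers, were unequal in level. H19 was from 2.39 through a median of 18.0 to 95.8 TPM in Ecad males and from 0.08 through 2.86 to 198.8 TPM in Ecad females. It was from 0.26 through 6.84 to 174.6 TPM in ΔEcad males and from 0.24 through 16.3 to 282.9 TPM in ΔEcad females. High and low tumours occurred in every group, and the groups overlapped. For ΔEcad against Ecad, H19 stood on the log2 scale at 1.19 (SE 1.25, edgeR adjusted p 0.742) in females and -0.12 (SE 1.24, edgeR adjusted p 0.982) in males. It was 0.36 in females without ΔEcad female 7, 2.22 without Ecad female 2 and -0.69 with the keratinocyte and melanocytic scores as covariates, and -1.29 in males without ΔEcad male 7.

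Igf2 was from 0.07 through a median of 0.56 to 1.35 TPM in Ecad males and from 0 through 0.285 to 3.54 TPM in Ecad females. It was from 0.10 through 0.47 to 13.2 TPM in ΔEcad males and from 0.35 through 0.955 to 2.25 TPM in ΔEcad females. ΔEcad male 2 (13.2 TPM) and ΔEcad male 7 (7.35 TPM) were the highest, and the other 30 tumours were at 3.54 TPM or less. In males the fitted log2 fold change stood at 2.41 (SE 0.96, edgeR adjusted p 0.434), and 1.02 (edgeR adjusted p 0.770) without ΔEcad male 2, the library without Y-linked counts. The other male values that rested on few tumours were 7.09 for Dlk1, 3.98 for Meg3 and 3.16 for Rian without ΔEcad male 2. In females the log2 fold change of Igf2 was 0.57 (SE 0.91, edgeR adjusted p 0.849), 1.64 without Ecad female 5 and 0.35 without ΔEcad female 2. Between ΔEcad females and males it was -1.68, and -0.29 without ΔEcad male 2.

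H19 exceeded Igf2 in 30 of 32 tumours, with a median log2 ratio of TPM of 3.98. The ratio ran from -1.04 in Ecad female 3 to 7.34 in ΔEcad female 7. The pair varied together (r 0.623, permutation adjusted p 0.0021; rho 0.761, permutation adjusted p 0.000225), with r of 0.508 to 0.889 within the groups and 0.636 without Ecad female 3 and ΔEcad female 7. H19 was also related to Cdkn1c of the neighbouring Kcnq1 domain (r 0.587, permutation adjusted p 0.00414, and rho 0.580, permutation adjusted p 0.00825). That relation was close only among ΔEcad female tumours (r 0.960). It was weaker with E-cadherin kept (r 0.457 for males, 0.278 for females) and weakest for ΔEcad males (r 0.236). Without Ecad female 3 and ΔEcad female 7, r over the remaining tumours was 0.513.

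H19 was most closely related, of the 10 cell type scores, to skeletal muscle (8 genes, among them Ckm and Acta1), with r 0.751 (permutation adjusted p 0.0005; rho 0.754, permutation adjusted p 0.0005). Within groups r was 0.793 and 0.892 in Ecad males and females, and 0.095 and 0.929 in ΔEcad males and females. Muscle scores had a gap from 1.04 to 2.84: mean H19 was 0.20 log2 CPM in the 11 tumours below and 4.58 in the 21 above it, where r was 0.467, against -0.022 below. The muscle markers had median sums of 2934 TPM (males) and 23.5 TPM (females) in Ecad and of 426.3 TPM (males) and 1103 TPM (females) in ΔEcad tumours, over a range from 4.05 to 25388 TPM in all. H19 was related to the adipocyte score as well (r 0.606, permutation adjusted p 0.0045; rho 0.607, permutation adjusted p 0.00591), as was Igf2 (r 0.533, permutation adjusted p 0.0105; rho 0.618, permutation adjusted p 0.0036). The part of muscle and fat in these levels was not tested.

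**Figure D4:**
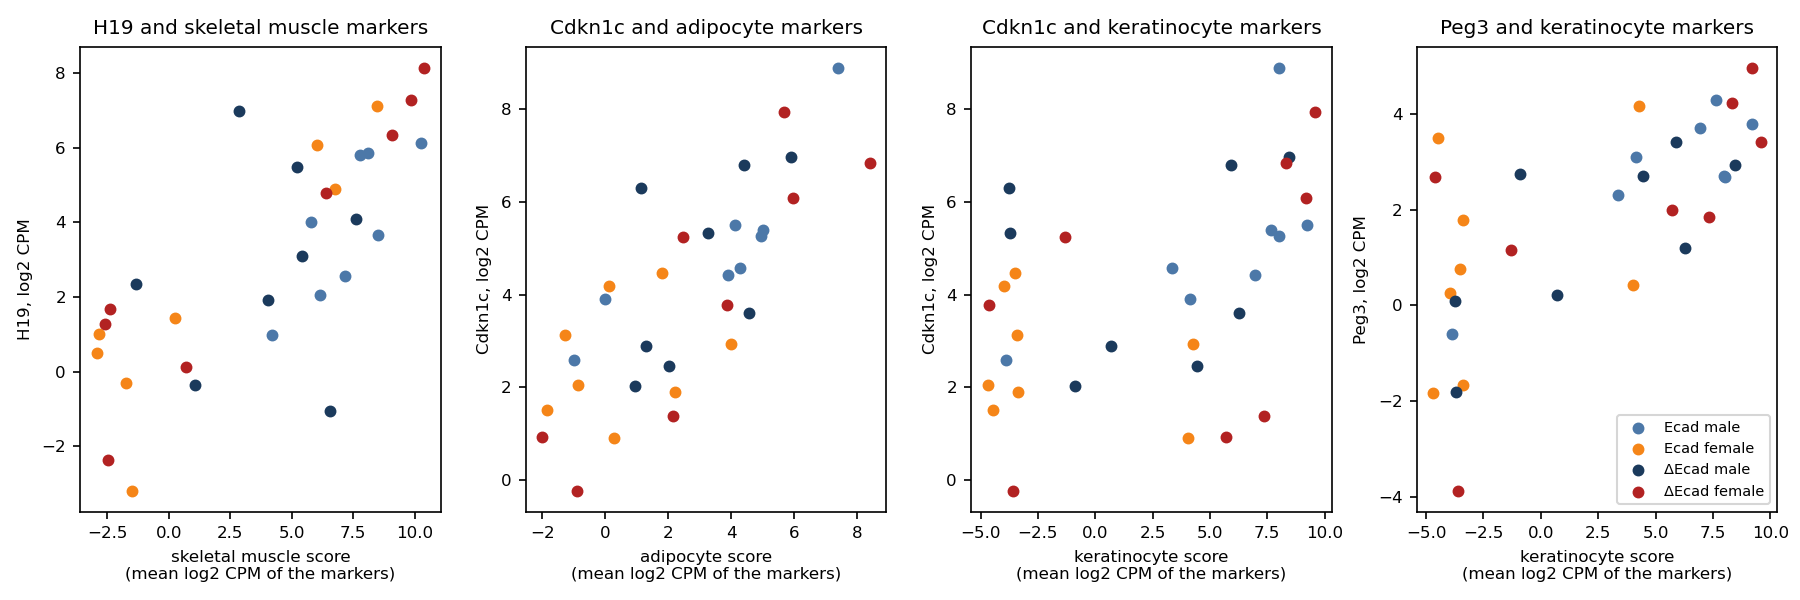
Log2 CPM of H19, Cdkn1c and Peg3 against the mean log2 CPM of marker genes of skeletal muscle, adipocytes and keratinocytes, with 1 point per tumour coloured by group. H19 is higher in tumours with high muscle scores (r 0.751), and 6 of the 8 Ecad females lie below the gap in the keratinocyte scores.

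Peg3, which encodes a large zinc finger protein, was from 0.14 through a median of 1.795 to 4.47 TPM in Ecad males and from 0.05 through 0.27 to 4.04 TPM in Ecad females. It was from 0.06 through 0.615 to 2.65 TPM in ΔEcad males and from 0.01 through 1.16 to 7.43 TPM in ΔEcad females. Ecad male 7 (0.14 TPM) and ΔEcad female 3 (0.01 TPM, 2 counts) lay below the rest of their groups. ΔEcad minus Ecad on the log2 scale gave 1.03 (SE 0.86, edgeR adjusted p 0.645) in females and -1.01 (SE 0.86, edgeR adjusted p 0.681) in males, within the spread of the tumours. In females it was 0.47 without ΔEcad female 1 and 1.79 without Ecad female 5, and in females and males it was -0.11 and -0.05 with the marker scores as covariates. Peg3 was related to the keratinocyte score (r 0.686, permutation adjusted p 0.000333; rho 0.679, permutation adjusted p 0.002) in the same direction within all 4 groups (r 0.394 to 0.891). On either side of the gap in that score, r was 0.147 and 0.451, and mean Peg3 was 0.24 and 2.99 log2 CPM. It was related to the endothelial score too (r 0.680, permutation adjusted p 0.000333; rho 0.585, permutation adjusted p 0.00591). ΔEcad female 3 had both the lowest endothelial marker sum (0.78 TPM) and the lowest Peg3 (-3.86 log2 CPM) of the 32 tumours. The value of r without that tumour is not given here, and the part of these cells was not tested.

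Peg10, which supports the placenta and derives from a retrotransposon, was from 0.88 through a median of 2.17 to 12.1 TPM in Ecad males and from 1.28 through 8.155 to 18.0 TPM in Ecad females. It was from 0.84 through 3.08 to 15.9 TPM in ΔEcad males and from 0.66 through 5.005 to 36.5 TPM in ΔEcad females, where ΔEcad female 3 was the highest of all tumours. It had the narrowest spread of the 10 genes, and its log2 fold changes were 0.02 (SE 0.64) in females and 0.71 (SE 0.64) in males, with edgeR adjusted p of 0.994 and 0.703. Without ΔEcad female 3 the value in females was -0.70, and without ΔEcad male 2 the value in males was 0.12. Peg10 was the 1 member with a negative relation to another that passed by Pearson's r: with Cdkn1c, r was -0.525 (permutation adjusted p 0.01485), but rho was -0.431 (permutation adjusted p 0.109) and r was -0.361 without Ecad male 5 and ΔEcad female 3. It was also negatively related to the adipocyte score (r -0.472, permutation adjusted p 0.0316; rho -0.444, permutation adjusted p 0.0423).

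Plagl1, a transcription factor that can arrest the cell cycle, was from 0.38 through a median of 3.34 to 26.1 TPM in Ecad males and from 0.04 through 3.025 to 51.9 TPM in Ecad females. It was from 0.05 through 1.055 to 21.3 TPM in ΔEcad males and from 0.22 through 6.06 to 18.2 TPM in ΔEcad females. High and low tumours occurred in every group, and the log2 fold changes were -0.54 (SE 1.09, edgeR adjusted p 0.883) in females and -0.22 (SE 1.09, edgeR adjusted p 0.958) in males, and 0.93 in females with the marker scores as covariates. It was 0.34 in females without Ecad female 4, and in males -0.99 without ΔEcad male 6 and 0.24 without Ecad male 2. Plagl1 was negatively related to the macrophage score (r -0.419, permutation adjusted p 0.0470; rho -0.503, permutation adjusted p 0.0184).

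Grb10 was from 19.25 through a median of 32.4 to 45.1 TPM in Ecad males, and from 0.78 through 25.4 to 80.9 TPM in Ecad females. It was from 4.63 through 24.8 to 118.3 TPM in ΔEcad males and from 11.3 through 29.8 to 87.6 TPM in ΔEcad females. The medians lay within 24.8 to 32.4 TPM. The lowest values were in Ecad female 6 (0.78 TPM) and Ecad female 1 (1.20 TPM), and the highest in ΔEcad male 7 and ΔEcad female 3. The log2 fold changes were 0.15 (SE 0.60) in females and 0.03 (SE 0.60) in males, with edgeR adjusted p of 0.948 and 0.993. They were -0.11 in females without ΔEcad female 3 and -0.50 in males without ΔEcad male 7.

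The spread between tumours of 1 group was large for most members. The residual SD of log2 CPM after removal of group means was 3.07 for H19, 2.99 for Dlk1, 2.64 for Plagl1, 2.15 for Meg3, 2.13 for Cdkn1c and 2.10 for Peg3, all above the 90th percentile of the 17717 genes tested, whose median was 0.862. Rian (2.03), Igf2 (1.87), Grb10 (1.52) and Peg10 (1.35) lay at the 89.2, 86.2, 77.4 and 71.85 percentiles. With each tumour left out in turn, 4 to 7 of the 10 members lay above the 90th percentile. The spread was not the same in each group: the SD of Grb10 was 0.49 in Ecad males and 2.49 in Ecad females, and that of Dlk1 was 1.72 and 1.62 in the Ecad groups against 3.97 and 3.82 in the ΔEcad groups, which hold ΔEcad male 7 and ΔEcad female 3. Differences in spread were not tested. On simulated counts with the dispersion of these tumours, the test called 89% of 100 genes with a true log2 change of 4 and 57% of 100 with one of 2 in the comparison of females. The changed genes were drawn at random from tested genes above a low mean level, each with its own dispersion. All 10 members spread more than the median gene, so these shares do not hold for the members.

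**Figure D5:**
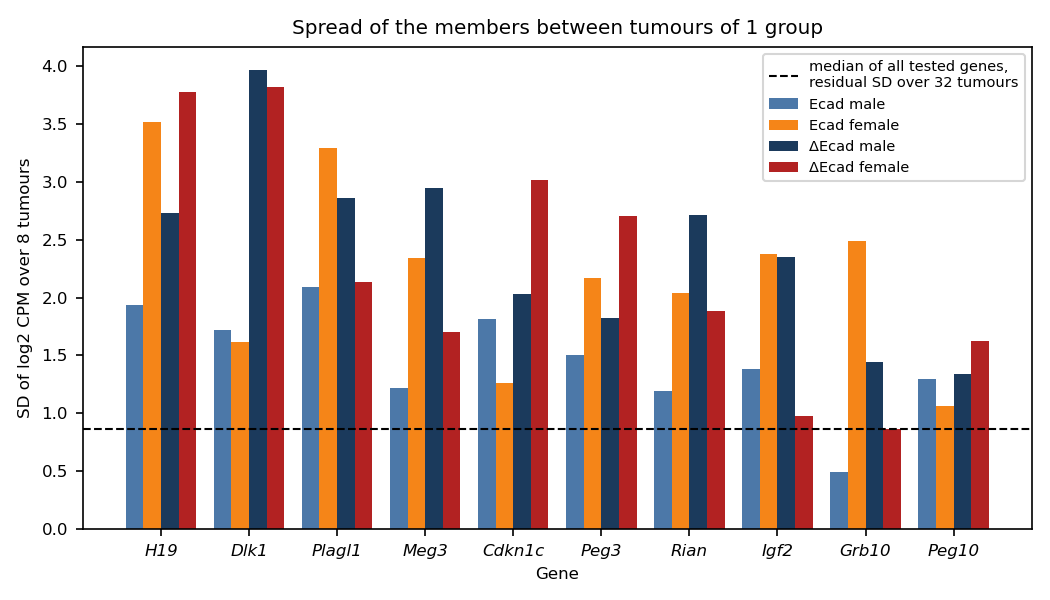
SD of log2 CPM over the 8 tumours of each group for the 10 genes, ordered by their residual SD, with a dashed line at the median residual SD of all 17717 genes tested (0.862). H19 and Dlk1 have the widest spread and Peg10 the narrowest, and all bars but that of Grb10 in Ecad males (0.49) reach the line.

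Genes around the members were counted from lists. Of 44 other imprinted genes, 39 were tested and edgeR called none in any of the 5 comparisons. At an unadjusted p under 0.05, there were 11 of 39 in females (10 higher in ΔEcad, 1 lower), against 15.3% of all genes (11.2% higher, 4.13% lower). There were 5 of 39 in males (all higher), against 10.2% of all genes (7.19% higher, 3.05% lower). In females the smallest p belonged to Ndn, the gene of necdin (log2 fold change 2.08, SE 0.56, edgeR adjusted p 0.0522), Cd81 (-1.04, SE 0.31, edgeR adjusted p 0.0703) and Dio3 (3.05, SE 0.95, edgeR adjusted p 0.0781). In males it belonged to Rasgrf1, an activator of RAS proteins (6.25, SE 1.66, edgeR adjusted p 0.365), Commd1 (1.39, SE 0.40, edgeR adjusted p 0.375) and Blcap (0.61, SE 0.26, edgeR adjusted p 0.448). Rasgrf1 was at 43.8 TPM in ΔEcad male 7, the tumour with the highest Dlk1, Meg3, Rian and Grb10, and at 0.57 TPM or less in the other 31. Commd1 likewise had 1 high tumour, ΔEcad male 1 at 42.1 TPM, with 13.5 TPM as the next value. Dio3 also had 1 tumour far above the rest, ΔEcad female 3, as given above.

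Of 25 genes of the insulin-like growth factor (IGF) axis, in which Igf2 is a ligand, 21 were tested and 1 was called in 1 comparison. In that comparison, of ΔEcad with Ecad females, 1.2% of all genes were called. Igfbp6, a binding protein with a preference for IGF2, rose in ΔEcad females. It was from 6.62 through a median of 11.3 to 49.1 TPM in Ecad females and from 5.09 through 72.1 to 326.6 TPM in ΔEcad females, the highest being ΔEcad female 3. Its log2 change, fitted at 2.71 (SE 0.68, edgeR adjusted p 0.0463), gave a call that was lost in 5 of 9 alternatives (adjusted p from 0.000709 to 0.339 over the 9) and with 11 of the 16 females left out (edgeR adjusted p 0.0237 to 0.104, and 2.31 with 0.0520 without ΔEcad female 3). Next came Igfals (4.07, SE 1.11, edgeR adjusted p 0.0522), which carries IGFs in blood, and Igfbp2 (4.20, SE 1.18, edgeR adjusted p 0.0567). In males, Igfbp6 was fitted at 1.14 on the log2 scale (SE 0.64, edgeR adjusted p 0.535), with 528.1 TPM in ΔEcad male 7 and a fitted value of 0.28 (edgeR adjusted p 0.876) without that tumour. The smallest p values belonged to Stc2 (-1.88, SE 0.76, edgeR adjusted p 0.441), Igfbp4 (1.43, SE 0.62, edgeR adjusted p 0.453) and the IGF2 receptor Igf2r (0.75, SE 0.34, edgeR adjusted p 0.468), which is itself imprinted.

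Of 10 cell cycle genes on which inhibitors such as Cdkn1c act or which belong to its family, all were tested and edgeR called none. At an unadjusted p under 0.05 there were 0 in females and 1 in males, against 15.3% and 10.2% of all genes. In females the smallest p values belonged to Cdk2 (-0.67, SE 0.38, edgeR adjusted p 0.421), Ccnd1 (-0.79, SE 0.49, edgeR adjusted p 0.485) and Ccnd2 (-1.14, SE 0.76, edgeR adjusted p 0.527). In males, Cdk2 was fitted at -1.31 on the log2 scale (SE 0.38, edgeR adjusted p 0.375), with 47.25 to 408.2 TPM in Ecad and 31.8 to 93.65 TPM in ΔEcad males, and Ccne1 (0.58, SE 0.48, edgeR adjusted p 0.676) and Ccne2 (0.81, SE 0.72, edgeR adjusted p 0.695) came next.

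The genes most like each member over the 32 tumours were listed by Spearman's rho of log2 CPM among 13547 tested genes with a mean of at least 0 (13548 for Dlk1, which is itself below that mean). Meg3 was followed by Rian (rho 0.874), Cacna1g (0.829) and Zfp57 (0.790), and Rian by Meg3, Gxylt2 (0.787) and Zfp57 (0.777), which encodes a zinc finger protein that binds methylated imprinting control regions. H19 was most like Tmem182 (0.840), Klhl41 (0.834) and Mybpc1 (0.826), the last being a myosin-binding protein of slow muscle, and Igf2 was most like Comp (0.844), a cartilage matrix protein, Gprc5c (0.831) and Stmn2 (0.804). For Cdkn1c the first were Slco2b1 (0.813), B3gnt7 (0.796) and C130074G19Rik (0.795), and for Dlk1 Fam83d (0.775), Unc5b (0.775) and Tmem119 (0.764). Most tumours were near the limit of detection for Dlk1, so its ranks there are uncertain. Peg3 was most like Asprv1 (0.802), an epidermal protease, Il1f9 (0.782) and Hcar2 (0.7705). For Peg10, Plagl1 and Grb10 the first were Nid1 (0.719), Slc7a8 (0.772) and Cdr2l (0.687), followed by Pxdn (0.696) and Pomt2 (0.663), by Rps6ka2 (0.750) and Sept11 (0.738), and by Gcnt1 (0.624) and Tnrc18 (0.602).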

How the data were processed

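RNA of 32 tumours was sequenced as paired-end libraries of polyadenylated RNA (TruSeq Stranded mRNA). The authors checked reads with FastQC 0.11.5 and aligned them with STAR to GRCm38 with GENCODE M13 genes, and the deposited values are unnormalized counts for each gene and, in another table, TPM (counts scaled for gene length and library size). The study's methods mention batch correction where applicable, without saying whether it touched these tables. The deposited counts were whole, and TPM was a rescaling of them in 996 genes with high counts. The authors' own comparison columns were not used.

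Genes passing the expression filter of edgeR (17717) entered a single fit over the 32 tumours with 1 term per group (edgeR 4.0.16, limma 3.58.1, R 4.3.3; TMM scaling, quasi-likelihood test, robust). Calls needed an adjusted p (Benjamini-Hochberg, over all genes tested) below 0.05 and a log2 change of more than 1 in size. The SE given with an edgeR log2 fold change is its size divided by the square root of the F statistic of that test. Log2 CPM used a prior count of 1. Relations used 100000 permutations with scipy 1.17.1. Alternatives were DESeq2 1.42.0, other scaling, no filter, a tumour number block, marker scores as covariates, limma on log2(TPM + 0.1) and log2(TPM + 1), only the tumours compared, and each tumour left out. The fit without ΔEcad male 7 and ΔEcad female 3 was chosen after seeing the data.

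The members and gene lists were chosen with earlier results of these data known. Named genes were all members, any called gene of 3 lists (other imprinted genes, IGF axis, cell cycle), the 3 of each list with the smallest p in each genotype comparison, and the 3 genes most like each member. The scripts' statistics were tested on simulated data.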

Additional observations from a re-analysis of the deposited data

Results flagged for a closer look

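In 6 of the 40 groups of 8 tumours (10 genes in 4 groups), the highest or lowest tumour stood apart by Dixon's criterion (the gap to its nearest neighbour as a share of the range, at the 95% level). In independent normal data about 1 in 20 groups would be flagged. The 40 groups are not independent, since each gene was measured in the same 32 tumours, and ΔEcad male 7 and ΔEcad female 3 recur below. The 6 are therefore not set against that rate. Values are log2 CPM. Cdkn1c was at 8.88 in Ecad male 5, with the next tumour at 5.50, and that tumour had the second highest adipocyte and skeletal muscle marker sums of the 32 (1506 and 17404 TPM). Dlk1 was at 8.50 and Meg3 at 9.94 in ΔEcad male 7, with the next ΔEcad males at 1.30 and 3.33. Rian was at 6.35 in ΔEcad female 3, with the next ΔEcad female at 2.53. Peg3 was lowest at -0.59 in Ecad male 7, against 2.30 for the next, and at -3.86 in ΔEcad female 3, against 1.15. Ecad male 7 had a keratinocyte marker sum of 1.35 TPM, the lowest of the Ecad males. The part of other cells in these values was not tested.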

How the results depend on the processing

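No member was called in the 5 comparisons by edgeR under other scaling, without the filter, with covariates or with any tumour left out (0 to 0 members in each comparison), nor by limma on either TPM scale, nor by edgeR in the tumours compared alone, a fit made for 4 comparisons and not for the interaction, whereas DESeq2 called 1 in females, 1 between Ecad sexes and 1 in the interaction, Cdkn1c each time; the cause was not tested. Of the 45 pairs of members, 6 were related by Pearson's r on log2 CPM, 11 on log2(TPM + 0.1), 7 with group means removed and 5 to 11 with 1 tumour left out (5 without Ecad male 5, 11 without Ecad female 4, 10 without ΔEcad male 2). Of the neighbours in level, 2 to 4 pairs differed with 1 tumour left out, against 3. Over all genes, the calls in females were 213 by edgeR, 1281 by DESeq2, 322 with other scaling, 555 without the filter, 12 with the covariates and 1 on either TPM scale or in the females alone. In the interaction, the 0 calls by edgeR (3131 genes at an unadjusted p under 0.05) became 1225 by DESeq2, 201 with other scaling and 284 without the filter. In males, edgeR called 0 genes (1814 at an unadjusted p under 0.05) and DESeq2 21, and between Ecad sexes they called 9 and 1023. Without ΔEcad male 7 and ΔEcad female 3 there were 598 calls in females and 568 in the interaction. On the TPM scales the median of all genes moved by over 0.1, to -0.24 and -0.16 in males against 0.11. Dlk1 between ΔEcad females and males was -1.97, but 4.47 without ΔEcad male 7 and -5.38 without ΔEcad female 3. Dlk1 did not pass the filter where only the compared tumours were used, and had no value there.

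Same-numbered tumours of different groups were little more alike than others. Their deviations from group means had a median correlation of 0.0418 over 48 pairs (-0.547 to 0.423). For pairs with other numbers it was -0.00595 over 336 pairs (-0.694 to 0.751), and 1 tumour was closest to its own number. Whether the numbers stand for anything shared was not tested. With the number as a replicate block, 0 members were called in any comparison, 1 gene in females instead of 213, and the log2 fold change of Igfbp6 in females was 2.30 (edgeR adjusted p 0.126).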
